A study of Mus musculus with 24 samples.

Results

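Docetaxel is a taxane, a class of drugs that bind beta-tubulin inside the microtubule wall and keep the polymer from coming apart. Its effect on RNA levels was measured against the solvent dimethyl sulfoxide (DMSO) in 6 of the 24 RNA-seq libraries of the series, the 3 labelled Docetaxel and the 3 labelled DMSO, chosen by these treatment labels. Of 55487 genes in the count table, 15527 passed the low-count filter and were tested. The cells were Myc-CaP, a mouse prostate carcinoma line that overexpresses MYC, grown in DMEM with serum. All groups were treated for 6 days with medium renewed every 3 days, at 3.75 µM docetaxel or with DMSO alone. Libraries labelled alisertib (an inhibitor of the mitotic kinase Aurora A, 500 nM) and etoposide (a poison of topoisomerase II, 500 nM) were used to ask where docetaxel differed from other agents that act on dividing chromosomes. The labels place all libraries in batch 1 and do not state if replicate libraries stem from separate cultures, so p-values measure the spread between libraries, which may be technical. One cell line stands for the tumour here, with no stroma, vessels or immune cells in the culture.

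Microtubules are built from heterodimers of one alpha- and one beta-tubulin, and in mitosis they form the spindle. When a taxane holds them, chromosomes attach poorly, the spindle checkpoint stays on, and many cells eventually leave mitosis without dividing. Cells also sense how much unpolymerised tubulin they hold. The protein TTC5 recognises the first residues of a tubulin chain as it leaves the ribosome and, through SCAPER and the CNOT11 subunit of the CCR4-NOT deadenylase, has the tubulin mRNA degraded when free dimers are in excess.

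The stretch of tubulin mRNA that encodes these first residues is shown because the tubulin genes are the direct relatives of the drug's target. Each line gives the first 30 coding bases of the longest annotated coding sequence (GENCODE vM21 transcripts, GRCm38), with the first 4 codons in capitals.
Tuba1a: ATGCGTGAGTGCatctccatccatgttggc
Tuba1b: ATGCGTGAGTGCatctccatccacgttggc
Tuba4a: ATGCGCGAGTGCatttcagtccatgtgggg
Tubb2a: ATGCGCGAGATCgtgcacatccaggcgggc
Tubb2b: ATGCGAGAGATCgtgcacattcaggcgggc
Tubb4a: ATGCGGGAAATCgtgcacctgcaagccggt
Tubb4b: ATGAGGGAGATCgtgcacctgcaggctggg
Tubb5: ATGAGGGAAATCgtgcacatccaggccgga
In GRCm38 coordinates the genes lie at chr15:98949837-98953703, minus strand (Tuba1a), chr15:98931425-98934565, minus strand (Tuba1b), chr1:75214228-75219865, minus strand (Tuba4a), chr13:34074274-34078007, minus strand (Tubb2a), chr13:34126748-34130466, minus strand (Tubb2b), chr17:57080066-57087782, minus strand (Tubb4a), chr2:25222160-25224702, minus strand (Tubb4b) and chr17:35833921-35838306, minus strand (Tubb5). Tuba1a, Tuba1b and Tuba1c carry the same 12 letters in the first 4 codons. Several of these genes are near-identical over most of their coding sequence, so the split of reads among them depends on the authors' handling of reads that match more than one gene.

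The 3 DMSO libraries held 24648676, 26438205 and 26405246 counts. Docetaxel libraries 2 and 3 held 25169045 and 24997975, and docetaxel library 1 held 69757257, more than in any of the others. Levels are given as CPM, counts scaled to library size with TMM factors, in the order of libraries 1, 2 and 3, and changes as log2 fold changes of docetaxel over DMSO ± SE (edgeR quasi-likelihood test), with Benjamini-Hochberg adjusted p over all 15527 genes and a call at 0.05. On the second principal component the library numbered 2 was the lowest of its group in all 8 groups of the series. Nuclear-retained RNAs summed to 2201, 980 and 2285 CPM in docetaxel and 1204, 790 and 1190 CPM in DMSO. Among them Neat1 was at 1072, 306 and 1115 CPM in the docetaxel libraries against 154, 42.7 and 172 CPM in DMSO (log2 change 2.76 ± 0.68, adjusted p = 0.00174). Mitochondrially encoded transcripts took 1.65%, 1.77% and 2.82% of counts in docetaxel and 1.59%, 0.959% and 1.24% in DMSO, and 1 of the 12 tested was called. Of 9 prostate epithelial identity markers 5 were tested. Of these, Krt8, Cldn4 and Hoxb13 fell and Cdh1 (E-cadherin), near the detection limit in DMSO, rose from 0.123 to 0.971 CPM. The remaining 1 was not called. The 9 markers summed to 1859, 2237 and 2132 CPM in DMSO and 2061, 2265 and 1953 CPM in docetaxel, with overlapping groups. Leukocyte markers summed to 1.41 to 2.87 CPM in DMSO and 4.58 to 6.62 CPM in docetaxel over 17 genes, of which 3 were tested. Endothelial markers summed to 0.870 to 1.35 and 5.39 to 7.94 CPM over 10 genes, smooth muscle markers to 0.960 to 1.66 and 4.40 to 5.08 CPM over 7 genes, and neuroendocrine markers to 172 to 177 and 125 to 139 CPM over 10 genes. The part of these marker signals in the results below was not tested. In bulk RNA, fewer cells of a type and less RNA per cell cannot be told apart.

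Docetaxel called 7608 of 15527 genes (49.0% of those tested), 4121 higher (26.5%) and 3487 lower (22.5%). At the call threshold with at least a 2-fold change there were 2616 genes (16.8%), of which 2164 rose and 452 fell, and at 4-fold or more 1331 rose and 57 fell. For 8478 tested genes (54.6%) all 3 docetaxel libraries lay on one side of all 3 DMSO libraries. Such a lack of overlap, reported below for many single genes, was thus common. Against the 6 alisertib and etoposide libraries it held for 3321 genes (21.4%). Some genes below were named by a rule that required it. The direction depended on the level of a gene. Among 3524 tested genes with a mean under 1 CPM over the 6 libraries, 40.7% were called higher and 2.95% lower, and among 2166 genes at 100 CPM or more 15.1% were called higher and 41.6% lower. Genes silent in DMSO passed the filter only through a treated group: of the 3524, 634 had no more than 4 DMSO counts in all, and 606 of these were called higher. Among the other 2890 genes 829 were called higher (28.7%) and 104 lower (3.60%). Docetaxel libraries 2 and 3 had at least 1 count for 23221 and 24904 genes, against 18782 to 19292 in the 3 DMSO libraries at like depth. Scaled by total counts alone, the median change of all genes shifted by 0.21, and 78.4% of calls were higher instead of 54.2%. Directions below were checked under that scaling, and those that it turned are named.

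**Figure D1:**
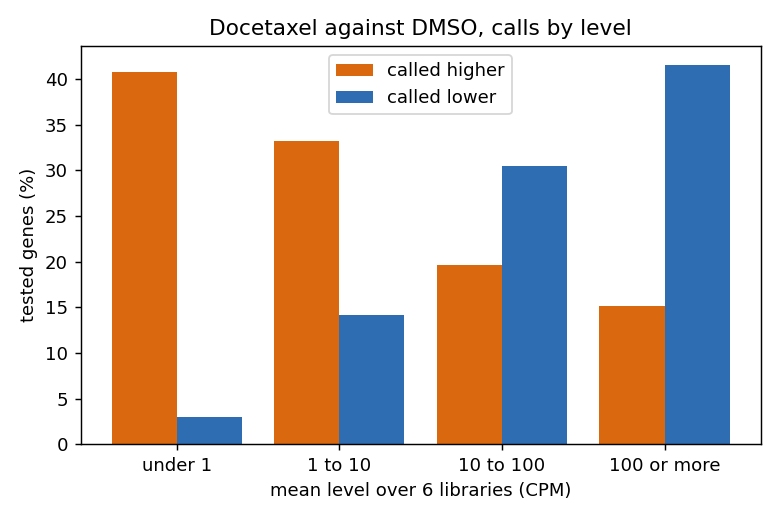
Share of tested genes called higher (orange) and lower (blue) after docetaxel, in percent (y axis), in 4 classes of mean level over the 6 libraries in CPM (x axis). Higher calls were 40.7% of the lowest class and 15.1% of the highest, and lower calls were 2.95% and 41.6%.

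The genes that encode tubulin rose together. Of 8 beta-tubulin genes, 7 were tested and 6 rose, and of 8 alpha-tubulin genes 4 were tested and 3 rose. The share that rose over all genes was 26.5%. Of the beta-tubulin genes that rose 1, Tubb3, had 0 DMSO counts and so passed the filter through treated groups. In TPM, a unit that divides by transcript length and so allows genes to be added, the beta-tubulin transcripts summed to 969, 1034 and 996 in DMSO and 2889, 3077 and 2957 in docetaxel. The alpha-tubulin transcripts summed to 1740, 1943 and 1889 TPM in DMSO and 3746, 4135 and 3733 TPM in docetaxel. TPM carries no TMM factor, and in CPM with TMM factors the rises were smaller. The beta sums were then 999.7, 1065 and 970 CPM in DMSO and 2392, 2807 and 2476 CPM in docetaxel. The alpha sums were 1274, 1415 and 1295 CPM in DMSO and 2138, 2606 and 2165 CPM in docetaxel. Every docetaxel library lay above every DMSO library for both sums in either unit.

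Tubb5, the main beta-tubulin of these cells, was at 1677, 1953 and 1729 CPM in the docetaxel libraries against 681, 723 and 669 CPM in DMSO (log2 change 1.37 ± 0.08, adjusted p = 1.34e-12). Tubb4b, a broadly expressed isotype, was at 463, 559 and 504 CPM in the docetaxel libraries against 218, 240.1 and 202 CPM in DMSO (log2 change 1.21 ± 0.08, adjusted p = 3.68e-11). In neither gene did the groups overlap, which was so for 54.6% of all tested genes. Tubb2a and Tubb2b, neighbouring genes best known from neurons, rose further but from low levels. Tubb2a was at 57.9, 67.7 and 58.3 CPM in the docetaxel libraries against 13.7, 12.6 and 11 CPM in DMSO (log2 change 2.30 ± 0.10, adjusted p = 1.53e-14), and Tubb2b was at 35.6, 42.3 and 36.1 CPM in the docetaxel libraries against 4.93, 5.6 and 3.63 CPM in DMSO (log2 change 3.01 ± 0.14, adjusted p = 8.15e-14). In both groups these isotypes were a small part of the pool: Tubb2a made up 2.17% ± 0.206 of beta-tubulin TPM in DMSO and 4.22% ± 0.0679 in docetaxel (SD, n = 3), and Tubb5 58.2% ± 0.710 and 59.5% ± 0.293. Tubb3, the neuronal class III isotype whose amount has been studied in taxane resistance, had 0 counts over the DMSO libraries and 1.04, 0.731 and 0.731 CPM in docetaxel, at least 20.1-fold higher against a floor of 3 counts over the DMSO group. Tubb4a, another neuronal isotype, was the one member called lower, at 1.16, 0.846 and 1.1 CPM in the docetaxel libraries against 2.31, 1.53 and 2.03 CPM in DMSO (log2 change -0.90 ± 0.34, adjusted p = 0.0309). That call was lost when any 1 docetaxel library, DMSO 1 or DMSO 3 was left out.

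Among alpha-tubulins the mix shifted. Tuba1a, the isotype of developing neurons, was at 756, 934 and 744 CPM in the docetaxel libraries against 276, 317 and 272 CPM in DMSO (log2 change 1.49 ± 0.12, adjusted p = 3.91e-10), and its share of alpha-tubulin TPM went from 24.1% ± 0.745 in DMSO to 38.2% ± 0.774 in docetaxel. Tuba1b rose from 636 ± 41 to 994 ± 108 CPM (log2 change 0.64 ± 0.09, adjusted p = 4.41e-06) and Tuba4a from 75 ± 3.65 to 129.9 ± 14.2 CPM (log2 change 0.79 ± 0.07, adjusted p = 5.71e-09). Tuba1c was at 345, 408 and 349.8 CPM in the docetaxel libraries against 319, 338 and 328 CPM in DMSO (log2 change 0.16 ± 0.07, adjusted p = 0.0707) and fell from 21.7% to 13.7% of the alpha pool; under scaling by total counts it was called higher.

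**Figure D2:**
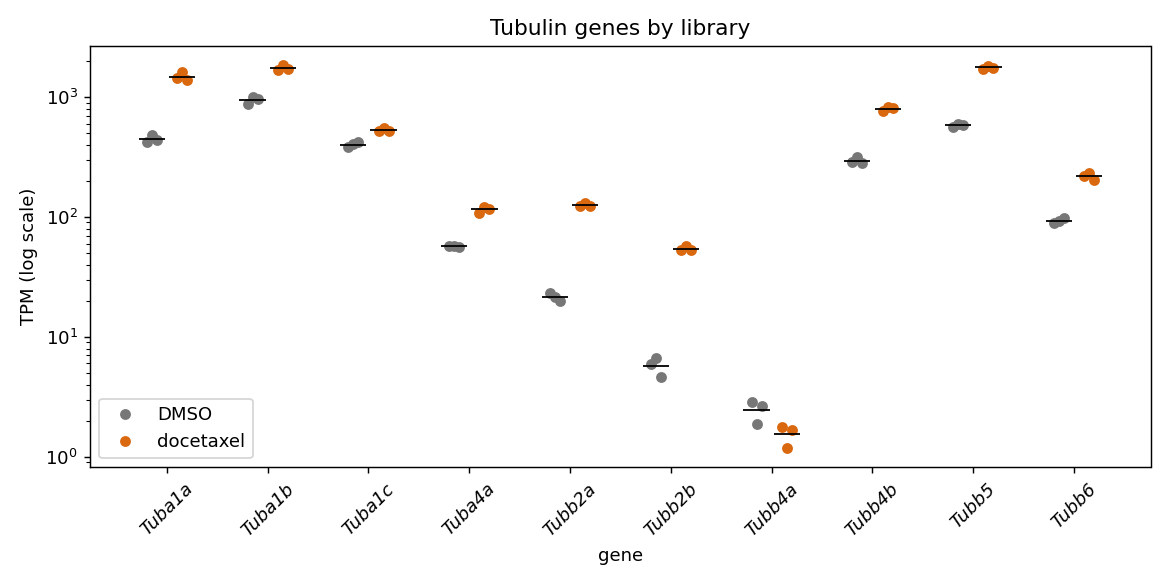
Levels of 10 tubulin genes in TPM (log y axis) in each of the 3 DMSO (grey) and 3 docetaxel (orange) libraries, with horizontal bars at the group means. Tubb5 lies highest among the beta-tubulins in both groups, and Tubb2b moves from a mean of 5.74 to 54.6 TPM.

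Tubulin levels were also set against the other 2 drugs. Against the mean of alisertib and etoposide, 6 of 7 beta-tubulins and 2 of 4 alpha-tubulins were higher in docetaxel, where 14.5% of all tested genes were called higher. Tubb5 was at 912 ± 44 CPM in alisertib and 1063 ± 87.4 CPM in etoposide (docetaxel minus their mean, log2 0.86 ± 0.06, adjusted p = 1.21e-09). Tuba1a was at 500.4 ± 31.4 CPM in alisertib and 405 ± 58.2 CPM in etoposide (log2 0.85 ± 0.10, adjusted p = 5.94e-07). The docetaxel libraries stood above all 6 others for both genes. Of all tested genes 21.4% were apart in this comparison, in either direction.

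Of 15 tested genes for proteins that fold tubulin or adjust its mRNA 1 rose and 7 fell (22.5% of all genes fell), with a median log2 change of -0.19. Ttc5 was at 23.1, 19.1 and 22.2 CPM in the docetaxel libraries against 30.4, 25.6 and 30.8 CPM in DMSO (log2 change -0.43 ± 0.11, adjusted p = 0.00208). Scaper was at 16.4, 16.8 and 15.9 CPM in the docetaxel libraries against 19.6, 26.1 and 24.2 CPM in DMSO (log2 change -0.51 ± 0.12, adjusted p = 8.32e-04). Cnot11 was at 136, 134 and 125 CPM in the docetaxel libraries against 151, 149 and 149 CPM in DMSO (log2 change -0.19 ± 0.05, adjusted p = 0.00489). The docetaxel libraries lay below the DMSO libraries for all 3 genes. The Ttc5 and Cnot11 calls did not hold under scaling by total counts, where 1 member of the list was called higher and 2 lower. In limma on log2(TPM + 1) and log2(TPM + 0.1) 1 was higher and 1 lower, and Ttc5, Scaper and Cnot11 were not called, nor were they against a minimum change of 1.5-fold. Tbcb, a cofactor of alpha-tubulin folding, was the member that rose (0.33 ± 0.11), a call lost without DMSO 3, without docetaxel 2 or without both libraries numbered 2.

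Proteins that bind or cut microtubules mostly rose: 16 of 27 tested were higher and 2 lower, where 26.5% of all genes rose. Of the 16, 2 had no more than 4 DMSO counts in all, and among the other 25 genes 14 rose and 2 fell. Map6, which protects microtubules from cold and drugs, rose from 5.57 ± 0.657 to 13.1 ± 0.994 CPM (log2 change 1.23 ± 0.12, adjusted p = 8.50e-09). Stmn1 (stathmin), which binds free dimers and promotes disassembly, rose from 54.5 ± 3.31 to 101 ± 7.5 CPM (log2 change 0.89 ± 0.15, adjusted p = 2.96e-05), and Map1b from 65.8 ± 6.19 to 106 ± 7.46 CPM (log2 change 0.69 ± 0.11, adjusted p = 2.02e-05). Map4, the main such protein outside neurons, was at 224 ± 13.1 CPM in DMSO and 231 ± 6.9 CPM in docetaxel (adjusted p = 0.559) and lower than under alisertib and etoposide (log2 -0.66 ± 0.05, adjusted p = 3.21e-09). Relative to DMSO, Map4 was called higher under scaling by total counts and in both limma fits. Among enzymes that modify tubulin, Ttl, which restores the C-terminal tyrosine on free alpha-tubulin, rose (log2 change 0.69 ± 0.07, adjusted p = 6.67e-08) and Hdac6, which removes acetyl groups from microtubules, fell (log2 change -0.64 ± 0.09, adjusted p = 3.85e-06).

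Genes of mitosis were higher after 6 days of docetaxel than in DMSO. Of 30 genes of mitotic entry and exit 24 rose and 0 fell, and of 24 genes of the spindle checkpoint and the chromosomal passenger complex 17 rose and 0 fell, where 26.5% of all genes rose. Aurka, the kinase of spindle poles, was at 57.4, 70.2 and 63.6 CPM in the docetaxel libraries against 23.7, 24.6 and 25.6 CPM in DMSO (log2 change 1.37 ± 0.15, adjusted p = 1.15e-07). Mastl, which restrains the phosphatase that ends mitosis, was at 23, 21.5 and 23.5 CPM in the docetaxel libraries against 8.86, 11.2 and 9.61 CPM in DMSO (log2 change 1.20 ± 0.15, adjusted p = 5.68e-07). Tpx2, which activates Aurora A on the spindle, was at 109.9, 123 and 125 CPM in the docetaxel libraries against 49.4, 64.4 and 55.2 CPM in DMSO (log2 change 1.08 ± 0.17, adjusted p = 1.71e-05). The groups did not overlap for these 3 genes. Zwilch and Knl1, parts of the kinetochore platform that recruits checkpoint proteins, rose by 1.15 ± 0.13 and 1.08 ± 0.16 on the log2 scale. Among cyclins Ccnb1 rose (log2 change 0.79 ± 0.17, adjusted p = 6.89e-04), whereas Ccna2 at 65.1 CPM in DMSO and 86.1 CPM in docetaxel and Ccnb2 at 36.7 CPM in DMSO and 47.8 CPM in docetaxel did not pass the test (adjusted p = 0.113 and 0.177); both were called higher under 6 alternatives, scaling by total counts and both limma fits among them.

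Of 19 cytokinesis genes 9 rose and 2 fell (26.5% and 22.5% of all genes), and under scaling by total counts 14 rose and 0 fell. Prc1, which bundles the midzone microtubules, was at 87.9, 85.3 and 88.3 CPM in the docetaxel libraries against 34.6, 53.4 and 42.9 CPM in DMSO (log2 change 1.00 ± 0.17, adjusted p = 3.03e-05). Kif20a and Racgap1, which work at the same midzone, rose by 0.94 ± 0.13 and 0.72 ± 0.15. Kif4, a chromosome kinesin, fell (log2 change -0.25 ± 0.06, adjusted p = 0.00148), a call lost under scaling by total counts. The PIDDosome is a complex that activates caspase-2 when extra centrosomes are present. Of 17 genes of the centrosome and of the PIDDosome, 8 rose and 1 fell (26.5% and 22.5% of all genes). Stil and Plk4, which start centriole assembly, rose by 1.10 ± 0.16 and 0.64 ± 0.13. Casp2 rose (log2 change 0.34 ± 0.08, adjusted p = 7.56e-04), while Cradd, the adaptor between PIDD1 and caspase-2, was at 5.48, 5.89 and 7.35 CPM in the docetaxel libraries against 11.3, 11.5 and 11.8 CPM in DMSO (log2 change -0.90 ± 0.11, adjusted p = 9.21e-07) and fell.

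S-phase genes were higher too. Of 47 DNA replication genes 32 rose and 1 fell. For recombination and Fanconi repair 20 of 26 genes rose and 2 fell, where 26.5% of all genes rose and 22.5% fell. Cdc45, a subunit of the replicative helicase, was at 23.2, 24.7 and 26.2 CPM in the docetaxel libraries against 11, 13.4 and 11.9 CPM in DMSO (log2 change 1.02 ± 0.12, adjusted p = 1.54e-07). Mcm10, which helps to activate that helicase, was at 24.5, 25.2 and 28.9 CPM in the docetaxel libraries against 14.4, 13.2 and 10.6 CPM in DMSO (log2 change 1.04 ± 0.17, adjusted p = 1.94e-05). Bard1, the partner of BRCA1, was at 15.8, 16 and 17.7 CPM in the docetaxel libraries against 6.37, 6.67 and 6.3 CPM in DMSO (log2 change 1.35 ± 0.15, adjusted p = 1.04e-07). The groups were apart for all 3 genes. The exceptions included Fance, a core Fanconi subunit (-0.87 ± 0.08), and Rad51d (-0.61 ± 0.08), which fell.

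These same lists lay below the levels of the other 2 drugs. In the direct test against the mean of alisertib and etoposide, 0 of 47 replication genes were higher and 46 lower, 0 of 30 mitotic entry and exit genes were higher and 26 lower, and 0 of 24 checkpoint genes were higher and 23 lower, where 12.7% of all tested genes were called lower. Cdc45 was at 40.4 ± 2.65 CPM in alisertib and 53.2 ± 0.882 CPM in etoposide (log2 -0.91 ± 0.10, adjusted p = 2.32e-07). Rrm2, the regulated subunit of ribonucleotide reductase, was at 175 ± 24.3 CPM in DMSO and 203 ± 5.26 CPM in docetaxel and at 295 ± 3.64 CPM in alisertib and 483 ± 34.6 CPM in etoposide (log2 -0.90 ± 0.16, adjusted p = 1.98e-04). Relative to DMSO, Rrm2 was not called under TMM, but it was called higher under scaling by total counts and in both limma fits. On the log2(CPM + 0.5) scale relative to the DMSO mean, the median replication gene was at 0.38, 0.52 and 0.44 in docetaxel, 0.74, 0.72 and 0.67 in alisertib and 1.11, 1.15 and 1.18 in etoposide. For mitotic entry and exit the medians were 0.70, 0.78 and 0.82, then 1.28, 1.18 and 1.13, then 1.19, 1.33 and 1.27. Docetaxel stood between DMSO and the other drugs in every library for both lists.

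**Figure D3:**
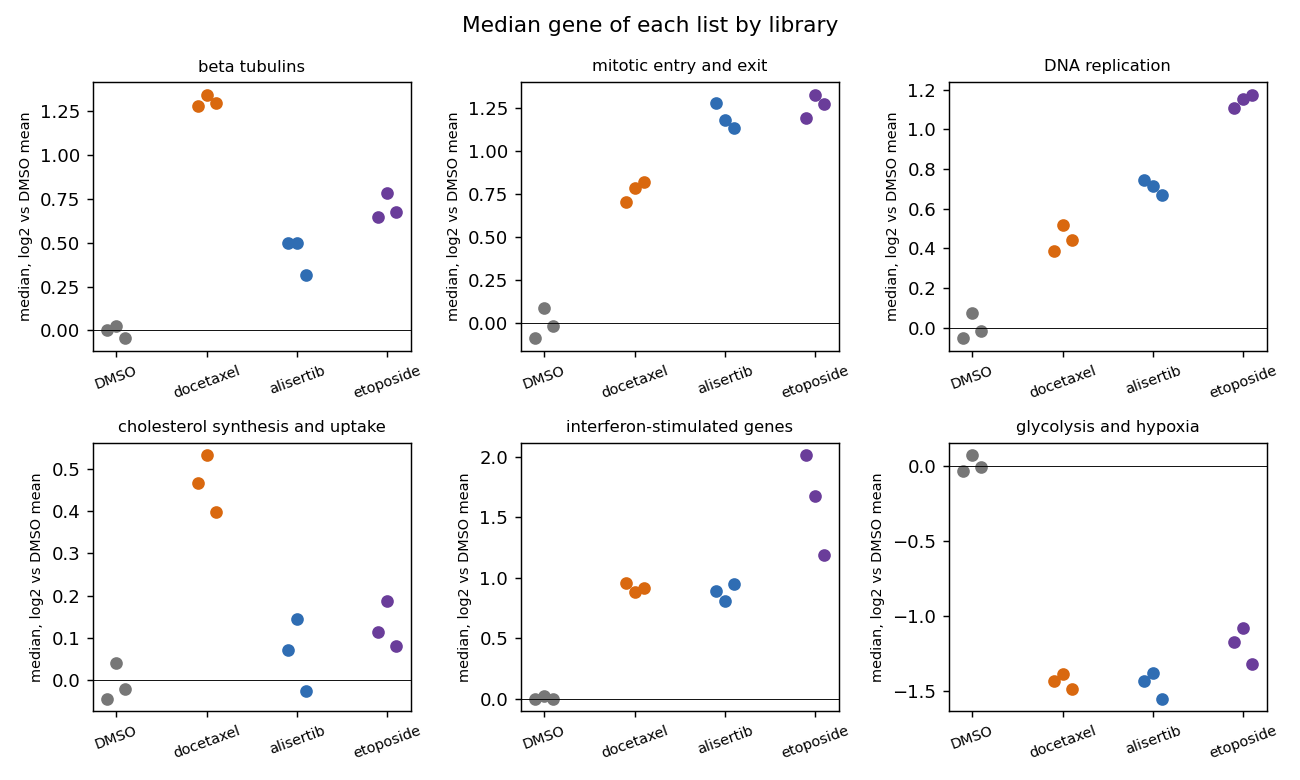
Median level of the tested members of 6 gene lists in each library, as log2(CPM + 0.5) relative to the DMSO mean (y axis), for DMSO, docetaxel, alisertib and etoposide (3 points each). For DNA replication and for mitotic entry and exit docetaxel lies between DMSO and the other drugs, and for cholesterol synthesis it lies above all 9 other libraries.

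Replication-dependent histone genes, whose mRNAs normally lack a poly(A) tail and are made in S phase, were higher too. Of 66 listed genes 37 were tested, 31 rose and 0 fell (26.5% and 22.5% of all genes). Of those that rose 5 had no more than 4 DMSO counts in all. H4c9 was at 17.5, 24.1 and 14.8 CPM in the docetaxel libraries against 1.83, 1.78 and 1.28 CPM in DMSO (log2 change 3.53 ± 0.19, adjusted p = 7.60e-13) and H2bc4 at 30.5, 32.9 and 30.1 CPM in the docetaxel libraries against 7.68, 4.97 and 5.5 CPM in DMSO (log2 change 2.37 ± 0.13, adjusted p = 6.38e-13), with no overlap. The nuclear-retained RNAs given above were higher in docetaxel 1 and 3 than in any DMSO library, and mitochondrially encoded transcripts took a larger share of counts in all 3 docetaxel libraries; the part of either in the histone and ribosomal protein results was not tested. H1f2, a linker histone of the list, was at 72, 94.6 and 63.4 CPM in the docetaxel libraries against 104, 97.4 and 76.8 CPM in DMSO (adjusted p = 0.0818), with overlapping groups, and it was called lower when DMSO 3 or docetaxel 2 was left out. Histone genes of one type are nearly identical in sequence. Slbp, which binds the stem-loop end of these mRNAs, was at 45.9 CPM in DMSO and 47.6 CPM in docetaxel (adjusted p = 0.565). It was called higher under scaling by total counts and in both limma fits. Of the 37 histone genes, 8 were higher and 1 lower than under alisertib and etoposide (14.5% and 12.7% of all genes).

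Targets of p53 split: of 28 tested 13 rose and 9 fell (26.5% and 22.5% of all genes), and under scaling by total counts 17 and 5. Cdkn1a (p21), which blocks cyclin-dependent kinases, rose from 27.9 ± 0.985 to 52.8 ± 1.98 CPM (log2 change 0.92 ± 0.08, adjusted p = 9.85e-10). Phlda3, an inhibitor of AKT, was at 25, 30.7 and 22.7 CPM in the docetaxel libraries against 9.64, 9.57 and 10.2 CPM in DMSO (log2 change 1.41 ± 0.14, adjusted p = 1.64e-08), and Eda2r, a death receptor, at 8.24, 6.19 and 7.17 CPM in the docetaxel libraries against 2.49, 2.11 and 2.03 CPM in DMSO (log2 change 1.71 ± 0.15, adjusted p = 2.42e-09). Btg2, an antiproliferative target that is also an immediate early gene, was at 202, 182 and 168 CPM in the docetaxel libraries against 693, 704 and 715 CPM in DMSO and fell (log2 change -1.93 ± 0.12, adjusted p = 1.13e-11). Ccng1 fell as well (log2 change -0.58 ± 0.08, adjusted p = 3.53e-06). Of 7 cyclin-dependent kinase inhibitors 3 rose and 3 fell, and under scaling by total counts 3 and 2. Cdkn2b (p15) was at 5.98, 7.04 and 5.16 CPM in the docetaxel libraries against 4.01, 3.61 and 3.59 CPM in DMSO (log2 change 0.70 ± 0.15, adjusted p = 6.87e-04), whereas Cdkn2c (p18) fell (log2 change -0.53 ± 0.09, adjusted p = 2.89e-05).

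Within the BCL2 family, 5 of 15 tested genes rose and 2 fell, against 26.5% and 22.5% of all genes, and without DMSO 3 the counts were 3 and 3. The killers Bcl2l11 (BIM) and Bid rose by 0.47 ± 0.07 and 0.51 ± 0.07. Bmf, a sensor tethered to the cytoskeleton through dynein light chains and released when that contact is disturbed, was at 28.5, 26.2 and 24.3 CPM in the docetaxel libraries against 49.1, 52.6 and 50.2 CPM in DMSO and fell (log2 change -0.94 ± 0.08, adjusted p = 2.25e-09). Mcl1, an unstable survival protein that mitotic arrest depletes, was at 262, 242 and 254 CPM in the docetaxel libraries against 294, 312 and 346 CPM in DMSO (log2 change -0.33 ± 0.06, adjusted p = 1.73e-04); the call was lost under scaling by total counts. Tnfrsf1a, the main receptor for tumour necrosis factor, fell (log2 change -0.97 ± 0.07, adjusted p = 4.06e-11), and Casp8 was at 18.9 CPM in DMSO and 17.4 CPM in docetaxel (adjusted p = 0.24).

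The lowest median of the 64 lists was that of glycolysis and the hypoxia response. Of 33 listed genes 29 were tested, 24 fell and 3 rose (22.5% and 26.5% of all genes). The median log2 change was -1.47 against 0.04 for all genes, and 24 fell under scaling by total counts as well. Pgk1, which makes ATP from 1,3-bisphosphoglycerate, was at 694, 831 and 721 CPM in the docetaxel libraries against 3711, 4347 and 4082 CPM in DMSO (log2 change -2.43 ± 0.15, adjusted p = 9.96e-12). Gapdh was at 1272, 1482 and 1262 CPM in the docetaxel libraries against 3662, 3908 and 3583 CPM in DMSO (log2 change -1.47 ± 0.10, adjusted p = 4.58e-11). Ldha, which turns pyruvate into lactate, was at 724, 862 and 722 CPM in the docetaxel libraries against 2435, 2688 and 2373 CPM in DMSO (log2 change -1.70 ± 0.12, adjusted p = 1.23e-10). In all 3 genes the highest docetaxel library was below the lowest DMSO library. Together the list took 2.52% ± 0.0907 of all counts in DMSO and 1.19% ± 0.0614 in docetaxel (SD, n = 3).

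Members of the hypoxia response outside glycolysis fell with them. Bnip3, a mitophagy receptor, was at 34.6, 36.2 and 33.8 CPM in the docetaxel libraries against 229, 319 and 256 CPM in DMSO (log2 change -2.94 ± 0.18, adjusted p = 4.77e-12). Car9, a cell surface carbonic anhydrase, was at 0.431, 0.0769 and 0.329 CPM in the docetaxel libraries against 2.75, 3.36 and 6.1 CPM in DMSO (log2 change -3.71 ± 0.49, adjusted p = 1.58e-06). Slc2a1, the basal glucose transporter GLUT1, was at 44.2, 49.3 and 38.7 CPM in the docetaxel libraries against 178, 196 and 193 CPM in DMSO (log2 change -2.10 ± 0.09, adjusted p = 2.68e-14). The groups did not overlap in these genes either. Vegfa fell from 158 ± 4.91 to 56.1 ± 8.02 CPM (log2 change -1.49 ± 0.10, adjusted p = 1.77e-11) and Egln1, an oxygen sensor that marks HIF-1α for destruction, from 231 ± 22.4 to 97.9 ± 12.3 CPM (log2 change -1.24 ± 0.10, adjusted p = 8.58e-10). Hif1a itself was at 188 ± 23.4 CPM in DMSO and 189.5 ± 3.07 CPM in docetaxel (log2 change 0.01 ± 0.09, adjusted p = 0.906). It was called higher under scaling by total counts. Pfkfb3, which makes an activator of phosphofructokinase, rose (log2 change 0.44 ± 0.07, adjusted p = 1.86e-05). G6pdx, the first enzyme of the pentose phosphate pathway, was at 61, 68.6 and 61.7 CPM in the docetaxel libraries against 161, 179 and 178 CPM in DMSO (log2 change -1.44 ± 0.06, adjusted p = 3.48e-14).

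**Figure D4:**
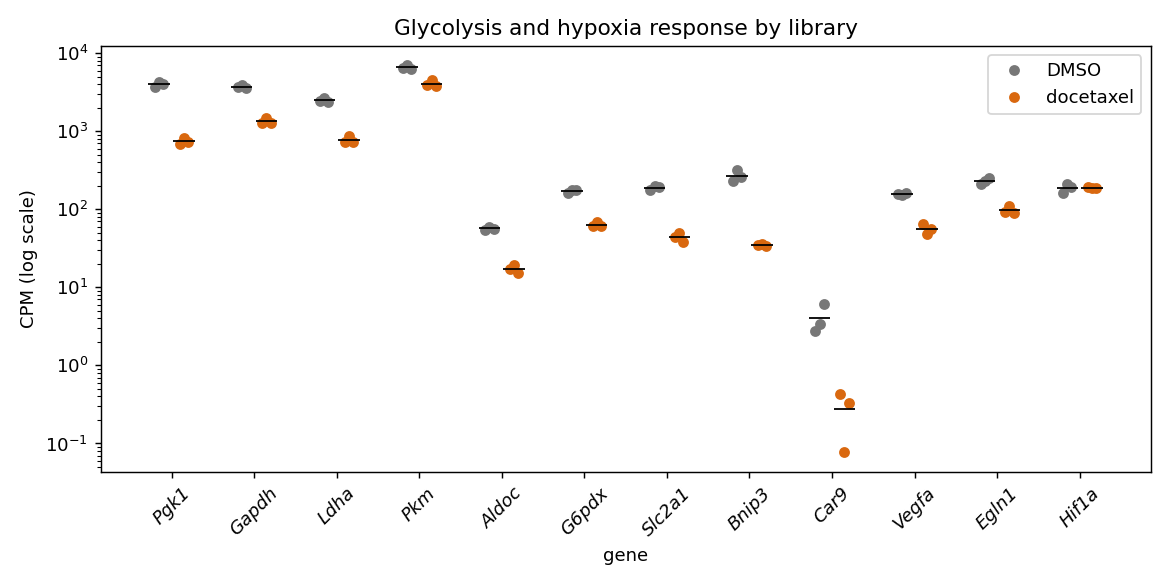
Levels of 12 genes of glycolysis and the hypoxia response in CPM (log y axis) in each DMSO (grey) and docetaxel (orange) library, with bars at the group means. The other 11 genes apart from Hif1a are lower in every docetaxel library than in every DMSO library, and the groups of Hif1a overlap.

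The promoters of these genes are known for the hypoxia-response core, ACGTG, at which HIF-1 binds. In RefSeq promoter windows of 300 bases (GRCm38.p6), this core was present on either strand in 22 of 31 listed genes with a window, against 5886 of 27025 genes (21.8%). The windows of Pgk1 and Bnip3, which both fell, are shown with each match in capitals. A match describes the letters in the window and no binding was measured.
Pgk1 (GRCm38.p6, chrX:106186850-106187149, plus strand): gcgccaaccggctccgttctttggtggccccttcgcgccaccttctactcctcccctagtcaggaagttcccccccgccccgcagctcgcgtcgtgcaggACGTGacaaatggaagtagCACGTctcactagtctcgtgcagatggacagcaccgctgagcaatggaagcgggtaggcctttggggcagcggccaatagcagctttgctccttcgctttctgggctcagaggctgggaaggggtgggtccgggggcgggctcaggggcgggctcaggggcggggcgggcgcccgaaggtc
Bnip3 (GRCm38.p6, chr7:138909457-138909756, minus strand): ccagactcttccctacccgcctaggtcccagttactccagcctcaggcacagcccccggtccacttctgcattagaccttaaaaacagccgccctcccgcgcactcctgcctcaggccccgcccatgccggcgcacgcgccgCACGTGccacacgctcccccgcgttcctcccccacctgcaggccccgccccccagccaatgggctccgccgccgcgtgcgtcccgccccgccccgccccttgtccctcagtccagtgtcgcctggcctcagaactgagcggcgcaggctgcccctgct

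Glycolytic genes were also low under the other 2 drugs. Against the mean of alisertib and etoposide, 4 of the 29 genes were higher and 5 lower in docetaxel, with a median difference of 0.00. These counts lay near the shares over all genes, 14.5% higher and 12.7% lower. Pgk1 was at 904 ± 54.8 CPM in alisertib and 972 ± 59.7 CPM in etoposide (log2 difference -0.32 ± 0.13), and Bnip3 at 36.8 ± 5.63 CPM in alisertib and 27.6 ± 3.36 CPM in etoposide (log2 difference 0.13 ± 0.15).

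Ribosomal protein genes fell as a block. Of 79 tested 60 fell and 1 rose (22.5% and 26.5% of all genes), with a median log2 change of -0.57. Under scaling by total counts 51 fell. Rpl3 was at 1029.6, 1145 and 1069 CPM in the docetaxel libraries against 2288, 2131 and 1898 CPM in DMSO (log2 change -0.96 ± 0.10, adjusted p = 2.78e-08), and Rps6 at 718, 885 and 765 CPM in the docetaxel libraries against 1572, 1339 and 1204 CPM in DMSO (log2 change -0.80 ± 0.14, adjusted p = 7.69e-05). The elongation factor Eef1a1 was at 11781, 13472 and 11652 CPM in the docetaxel libraries against 21049.6, 23967 and 20962 CPM in DMSO (log2 change -0.84 ± 0.10, adjusted p = 6.51e-07). The docetaxel libraries were below the DMSO libraries for all 3. The whole set took 9.46% ± 0.777 of counts in DMSO and 7.26% ± 0.474 in docetaxel. Nucleolar genes of ribosome biogenesis were a weaker case: 15 of 48 fell and 4 rose under TMM, but 4 fell and 22 rose under scaling by total counts. Npm1 (nucleophosmin), at 1096, 1173 and 1220.2 CPM in the docetaxel libraries against 2477, 2474 and 2196 CPM in DMSO (log2 change -1.03 ± 0.08, adjusted p = 6.69e-10), fell under both.

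Genes of the endoplasmic reticulum that answer to IRE1 and ATF6 fell: 24 of 29 tested were lower and 1 higher (22.5% and 26.5% of all genes). Pdia6, a disulphide isomerase, was at 997, 1175 and 957 CPM in the docetaxel libraries against 2110.3, 2041 and 1822 CPM in DMSO (log2 change -0.93 ± 0.10, adjusted p = 6.56e-08), and Edem2, which sorts misfolded glycoproteins, at 159, 179 and 157 CPM in the docetaxel libraries against 425, 410.1 and 357 CPM in DMSO (log2 change -1.27 ± 0.08, adjusted p = 7.33e-12). Bhlha15 (MIST1), a transcription factor of secretory cells, was at 1.44, 1.35 and 1.1 CPM in the docetaxel libraries against 11.5, 11.8 and 10.1 CPM in DMSO (log2 change -3.07 ± 0.17, adjusted p = 1.77e-12). None of these 3 overlapped. The integrated stress response did not move as one, with 10 of 28 higher and 9 lower (26.5% and 22.5% of all genes). The majority of that split turned under 6 alternatives. Nupr1, a stress regulator, rose from 11 ± 1.52 to 34.2 ± 1.07 CPM (log2 change 1.63 ± 0.15, adjusted p = 6.15e-09), and Cbs, which makes cystathionine, fell from 40.6 ± 1.17 to 12.4 ± 1.2 CPM (log2 change -1.71 ± 0.10, adjusted p = 3.05e-12). Against alisertib and etoposide, 20 of the 28 were lower and 5 higher (12.7% and 14.5% of all genes), with Trib3 at 29.5 ± 2.87 CPM in alisertib and 42 ± 3.75 CPM in etoposide and 10.8, 11.9 and 10.8 CPM in docetaxel (log2 -1.66 ± 0.11, adjusted p = 1.51e-10).

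Sterol synthesis went up. Of 30 genes of cholesterol synthesis and uptake 22 rose and 1 fell (26.5% and 22.5% of all genes). Without both libraries numbered 2 the counts were 18 and 1. Sqle, the first oxygen-using enzyme of the pathway, was at 104, 111 and 97.6 CPM in the docetaxel libraries against 54.4, 69.1 and 57.4 CPM in DMSO (log2 change 0.79 ± 0.08, adjusted p = 1.06e-08). Insig1, which holds the sterol sensor SCAP in the endoplasmic reticulum and is itself a target of the pathway, was at 86.3, 75.3 and 78.7 CPM in the docetaxel libraries against 47.3, 46.3 and 48.7 CPM in DMSO (log2 change 0.76 ± 0.10, adjusted p = 1.65e-06).

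This list was also higher than under the other drugs, with 23 of 30 genes higher and 0 lower against the mean of alisertib and etoposide (14.5% of all genes were called higher) and a median difference of 0.54. Hmgcs1, the synthase that feeds mevalonate, was at 35.3 ± 3.71 CPM in alisertib and 31.1 ± 1.38 CPM in etoposide, against 55.1, 54.4 and 58.9 CPM in docetaxel (log2 0.76 ± 0.06, adjusted p = 5.71e-09). Insig1 was at 44.8 ± 2.69 CPM in alisertib and 37 ± 2.58 CPM in etoposide (log2 0.98 ± 0.08, adjusted p = 1.23e-08). The letters TCACNCCAC, a form of the sterol regulatory element, were found on either strand in the 300-base window of 1 of 21 list genes with a window, Hmgcs1, against 388 of 27025 genes (1.44%).
Hmgcs1 (GRCm38.p6, chr13:119690101-119690400, plus strand, match in capitals): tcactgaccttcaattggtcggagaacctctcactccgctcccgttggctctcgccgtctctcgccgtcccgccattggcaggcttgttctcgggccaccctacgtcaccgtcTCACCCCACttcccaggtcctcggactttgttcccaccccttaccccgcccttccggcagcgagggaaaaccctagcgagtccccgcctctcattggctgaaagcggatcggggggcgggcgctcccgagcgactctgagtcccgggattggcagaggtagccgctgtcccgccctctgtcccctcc

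Fatty acid synthesis did not follow. Of 20 tested genes 4 rose and 12 fell (26.5% and 22.5% of all genes). Under scaling by total counts 5 rose and 9 fell, and in limma on log2(TPM + 1) 5 rose and 5 fell. The desaturases Scd2 and Fads1 were at 2153, 2221 and 2027 CPM in the docetaxel libraries against 2491, 3027 and 3072 CPM in DMSO (log2 change -0.42 ± 0.10, adjusted p = 8.94e-04) and 213, 217 and 206 CPM in the docetaxel libraries against 297, 303 and 290.3 CPM in DMSO (log2 change -0.48 ± 0.05, adjusted p = 8.31e-08). Acly, which supplies acetyl-CoA to both pathways, rose (log2 change 0.57 ± 0.08, adjusted p = 2.85e-06). Srebf2, the regulator best known for sterol genes, rose (log2 change 0.35 ± 0.07, adjusted p = 2.67e-04), and Srebf1, best known for fatty acid genes, was at 123 CPM in DMSO and 121 CPM in docetaxel (adjusted p = 0.857).

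Genes of innate immunity rose from low levels. Of 54 tested interferon-stimulated genes 45 rose and 2 fell (26.5% and 22.5% of all genes). Of those that rose 9 had no more than 4 DMSO counts in all, and among the 44 with more counts 36 rose and 2 fell. Ifitm3, which blocks viral fusion, was at 19, 21.5 and 17 CPM in the docetaxel libraries against 2.27, 1.99 and 1.91 CPM in DMSO (log2 change 3.22 ± 0.24, adjusted p = 1.34e-10). Usp18, a brake on the interferon receptor, was at 4.82, 5.85 and 4.83 CPM in the docetaxel libraries against 0.305, 0.249 and 0.159 CPM in DMSO (log2 change 4.42 ± 0.31, adjusted p = 6.27e-11). Bst2 (tetherin), already well expressed, was at 144, 180.4 and 148 CPM in the docetaxel libraries against 102, 89.9 and 81.9 CPM in DMSO (log2 change 0.78 ± 0.17, adjusted p = 7.28e-04). All docetaxel libraries were above all DMSO libraries in these genes. Isg20, an exonuclease, and Tgtp1, a GTPase, fell, with log2 changes of -0.98 ± 0.08 and -0.89 ± 0.10.

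Sensors of RNA and of DNA were counted apart. Of 15 RNA-sensing genes 13 rose and 1 fell, and of 14 DNA-sensing genes 4 rose and 2 fell. Over all genes 26.5% rose and 22.5% fell, and the DNA-sensing rises lay near that share. The difference between the lists was not tested. Of the RNA-sensing genes that rose 2 had no more than 4 DMSO counts in all, and of the DNA-sensing genes 0; among the other 13 RNA-sensing genes 11 rose and 1 fell. Ddx58, which encodes the receptor RIG-I, was at 30.0, 29.2 and 29.6 CPM in the docetaxel libraries against 14.7, 13.8 and 15.6 CPM in DMSO (log2 change 1.01 ± 0.12, adjusted p = 2.97e-07), and Oas3, which makes the activator of RNase L, at 5.26, 4.62 and 3.73 CPM in the docetaxel libraries against 0, 0.207 and 0.239 CPM in DMSO (log2 change 4.87 ± 0.49, adjusted p = 2.25e-08). Both separated the groups. Cgas was at 8.84, 9.43 and 9.32 CPM in the docetaxel libraries against 8.11, 8.58 and 7.46 CPM in DMSO (adjusted p = 0.177) and Sting1 at 5.52, 6.31 and 5.92 CPM in the docetaxel libraries against 6.06, 5.51 and 7.18 CPM in DMSO (adjusted p = 0.714); the groups overlapped for Sting1 and not for Cgas. Cgas was called higher under scaling by total counts and in both limma fits. Tlr3, the endosomal receptor for double-stranded RNA, fell (log2 change -0.84 ± 0.07, adjusted p = 2.26e-09). Against alisertib and etoposide, 24 of 54 interferon-stimulated genes were lower and 3 higher (12.7% and 14.5% of all genes), but the libraries of those drugs differed: the median gene was at 0.96, 0.88 and 0.91 in docetaxel, 0.89, 0.81 and 0.95 in alisertib and 2.01, 1.67 and 1.19 in etoposide, on the log2(CPM + 0.5) scale relative to DMSO.

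The interferon-stimulated response element, searched on both strands, was in the windows of 25 of 46 list genes with one, against 1079 of 27025 genes (3.99%). Isg15, which encodes a ubiquitin-like modifier, rose from 6.26 ± 0.698 to 15.9 ± 2.21 CPM (log2 change 1.35 ± 0.23, adjusted p = 3.38e-05), and its window holds overlapping matches, shown in capitals.
Isg15 (GRCm38.p6, chr4:156200769-156201068, minus strand): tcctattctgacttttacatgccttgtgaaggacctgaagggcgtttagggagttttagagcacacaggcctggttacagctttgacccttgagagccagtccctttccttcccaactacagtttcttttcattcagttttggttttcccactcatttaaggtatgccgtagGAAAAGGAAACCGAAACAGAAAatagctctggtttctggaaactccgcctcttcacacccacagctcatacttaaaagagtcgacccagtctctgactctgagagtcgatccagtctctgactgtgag

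Of 26 NF-kB subunits and targets 18 rose and 4 fell (26.5% and 22.5% of all genes). Of those that rose 4 had no more than 4 DMSO counts in all, and among the other 22 genes 14 rose and 4 fell. Relb and Nfkb2, the pair of the noncanonical pathway, were at 19.6, 19.9 and 16.6 CPM in the docetaxel libraries against 2.84, 4.19 and 3.19 CPM in DMSO (log2 change 2.46 ± 0.12, adjusted p = 2.31e-13) and 103, 97.4 and 93.1 CPM in the docetaxel libraries against 41.1, 39.7 and 43.2 CPM in DMSO (log2 change 1.24 ± 0.07, adjusted p = 1.11e-12). Rela rose less (0.40 ± 0.07) and Nfkb1 was at 68.2 CPM in DMSO and 68.8 CPM in docetaxel (adjusted p = 0.883). Under scaling by total counts and in both limma fits Nfkb1 was called higher. Vcam1, an adhesion molecule for leukocytes, had 4 counts over the DMSO libraries and 12, 11 and 10.7 CPM in docetaxel. Among chemokines 13 of 18 tested rose and 2 fell (26.5% and 22.5% of all genes). Of those that rose 4 had no more than 4 DMSO counts in all, and among the other 14 genes 9 rose and 2 fell. Cx3cl1 (fractalkine) was at 24, 26.1 and 22.1 CPM in the docetaxel libraries against 5.15, 5.64 and 5.5 CPM in DMSO (log2 change 2.15 ± 0.14, adjusted p = 3.24e-11). Cxcl17, a mucosal chemokine, was at 42.9, 53.1 and 40.6 CPM in the docetaxel libraries against 225, 194 and 189 CPM in DMSO and fell (log2 change -2.16 ± 0.14, adjusted p = 1.11e-11).

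Of 14 tested complement genes 8 rose and 0 fell (26.5% and 22.5% of all genes). Of those that rose 2 had no more than 4 DMSO counts in all, and among the other 12 genes 6 rose. C3, on which all activation routes converge, was at 127, 144 and 114 CPM in the docetaxel libraries against 2.31, 3.77 and 2.31 CPM in DMSO (log2 change 5.51 ± 0.17, adjusted p = 9.87e-17). C4b was at 2.59, 2.96 and 3.07 CPM in the docetaxel libraries against 0.218, 0.124 and 0.0797 CPM in DMSO (log2 change 4.32 ± 0.49, adjusted p = 1.56e-07), and C1s1, a protease of the classical pathway, at 3.58, 3.65 and 2.6 CPM in the docetaxel libraries against 0.131, 0.0829 and 0.12 CPM in DMSO (log2 change 4.83 ± 0.34, adjusted p = 6.90e-11). For antigen presentation, Cd74, the invariant chain of MHC class II, had 5 counts over the DMSO libraries and 31.4, 36.3 and 27.8 CPM in docetaxel. It was also higher than in the other drugs (15.7 ± 0.842 CPM in alisertib and 10.4 ± 0.292 CPM in etoposide, log2 1.31 ± 0.12, adjusted p = 1.62e-08). Of 12 class II genes 4 were tested, and the tested ones rose, where 26.5% of all genes rose. The 12 genes summed to only 1.91 to 2.53 CPM in the DMSO libraries. Among the tested genes 1 had no more than 4 DMSO counts in all and so passed the filter through treated groups. Of 22 class I genes 8 were higher and 6 lower (26.5% and 22.5% of all genes), and under scaling by total counts 12 and 3. Which direction had more calls changed without DMSO 3, without docetaxel 2 and without the low-count filter. Nlrc5, the activator of class I genes, was at 2.74, 2.27 and 3.04 CPM in the docetaxel libraries against 0.0436, 0.207 and 0.12 CPM in DMSO (log2 change 4.38 ± 0.46, adjusted p = 5.11e-08), H2-K1 rose (log2 change 0.78 ± 0.09, adjusted p = 1.78e-07), and H2-D1 was at 476 CPM in DMSO and 473 CPM in docetaxel (adjusted p = 0.943).

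Matrix genes were among the larger rises. Of 46 listed 34 were tested, 28 rose and 3 fell (26.5% and 22.5% of all genes). Of those that rose 5 had no more than 4 DMSO counts in all. Postn (periostin) was at 39.4, 43.8 and 34.4 CPM in the docetaxel libraries against 0.742, 0.414 and 0.439 CPM in DMSO (log2 change 6.20 ± 0.17, adjusted p = 2.56e-17). Col12a1, a collagen that associates with fibrils, was at 33.5, 40.2 and 37.2 CPM in the docetaxel libraries against 4.93, 6.34 and 4.39 CPM in DMSO (log2 change 2.82 ± 0.21, adjusted p = 2.33e-10). Spp1 (osteopontin) was at 1367, 1524 and 1395 CPM in the docetaxel libraries against 402, 458 and 392 CPM in DMSO (log2 change 1.78 ± 0.08, adjusted p = 5.28e-14). These 3 had no overlap. Col1a1 and Dcn, fibroblast markers, reached 0.888, 0.192 and 0.914 CPM and 0.914, 0.846 and 1.06 CPM in docetaxel. The 11 fibroblast markers summed to 13.6 to 22.1 CPM in DMSO and 27.6 to 28.7 CPM in docetaxel; 5 of them were tested and rose, 3 of which had no more than 4 DMSO counts and so passed the filter through treated groups. Their part in the matrix result was not tested. Lama5, a laminin chain of epithelia, fell (log2 change -0.51 ± 0.15, adjusted p = 0.00758), a call lost without DMSO 3 or under scaling by total counts. Col18a1 was at 11.9, 12.1 and 11.2 CPM in the docetaxel libraries against 0.654, 0.705 and 1.16 CPM in DMSO (log2 change 3.79 ± 0.28, adjusted p = 1.47e-10) and above both other drugs (6.12 ± 0.741 CPM in alisertib and 3.49 ± 0.563 CPM in etoposide).

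Epithelial genes fell. Of 26 genes of junctions and their regulators 16 fell and 6 rose, and of 16 keratins 9 fell and 5 rose. The shares over all genes were 22.5% and 26.5%. In each of these lists 2 of the genes that rose had no more than 4 DMSO counts in all. Krt4, a mucosal keratin, was at 101, 122 and 99.2 CPM in the docetaxel libraries against 617, 631 and 640.0 CPM in DMSO (log2 change -2.55 ± 0.15, adjusted p = 3.14e-12). Krt7 was at 34.7, 40.1 and 32.1 CPM in the docetaxel libraries against 144, 122 and 115 CPM in DMSO (log2 change -1.83 ± 0.12, adjusted p = 1.74e-11). Grhl2 and Esrp2, regulators that keep cells epithelial, fell, with log2 changes of -1.10 ± 0.07 and -1.22 ± 0.09. Prss8 (prostasin), a membrane protease, was at 6.45, 8.16 and 6.18 CPM in the docetaxel libraries against 48, 57 and 45.3 CPM in DMSO (log2 change -2.86 ± 0.12, adjusted p = 1.45e-14). The groups were apart for each. Vim (vimentin) was at 578, 623 and 551 CPM in the docetaxel libraries against 152, 155 and 139 CPM in DMSO and rose (log2 change 1.97 ± 0.07, adjusted p = 2.87e-16). But of 17 mesenchymal factors 8 rose, 1 of them with no more than 4 DMSO counts in all, and 3 fell. Against alisertib and etoposide 12 of the 17 were lower and 1 higher (12.7% and 14.5% of all genes). Of 15 prostate lineage genes 9 fell and 3 rose, and 2 of those that rose had no more than 4 DMSO counts in all. Psca was at 456, 552 and 479 CPM in the docetaxel libraries against 1328, 1191 and 1146 CPM in DMSO (log2 change -1.30 ± 0.11, adjusted p = 1.92e-09). Foxa1 was at 243, 236 and 219.6 CPM in the docetaxel libraries against 350.1, 373 and 423 CPM in DMSO (log2 change -0.72 ± 0.07, adjusted p = 3.48e-08).

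**Figure D5:**
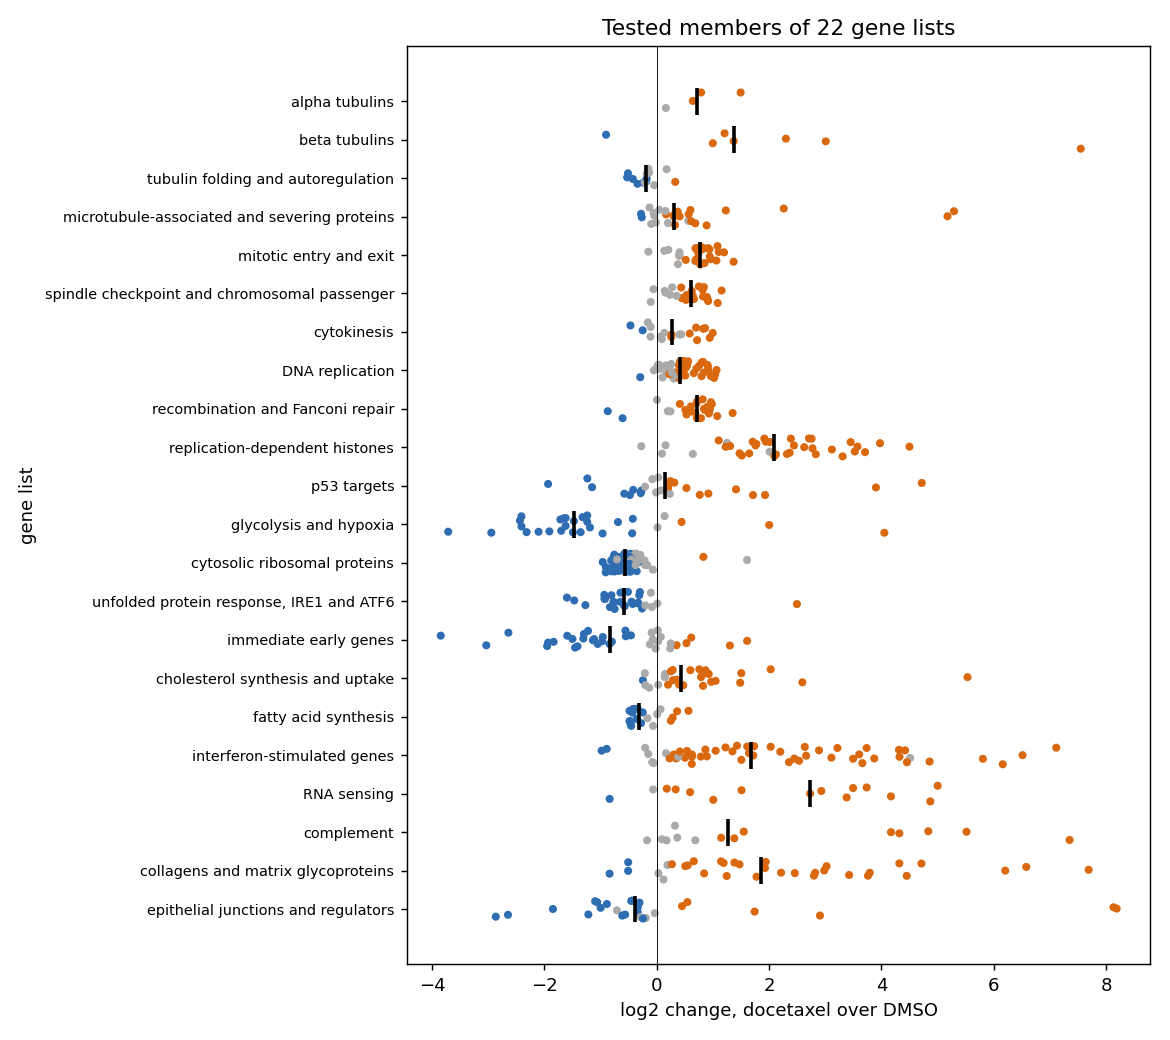
Log2 change of docetaxel over DMSO (x axis) for every tested member of 22 gene lists (one row each). Orange points were called higher, blue points lower and grey points not called, and a black bar marks the list median. The medians of glycolysis and ribosomal proteins lie left of 0, and those of tubulins, mitosis, histones, interferon-stimulated genes and matrix right of it.

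Immediate early genes, which growth factor and stress signals switch on within minutes, fell in 23 of 37 and rose in 5 (22.5% and 26.5% of all genes). Nr4a1, an orphan nuclear receptor, was at 28.3, 20.6 and 23.8 CPM in the docetaxel libraries against 211, 149.8 and 239 CPM in DMSO (log2 change -3.03 ± 0.22, adjusted p = 1.16e-10), Srf, which drives many of them, at 34.2, 37.1 and 29 CPM in the docetaxel libraries against 89.7, 80.6 and 114 CPM in DMSO (adjusted p = 1.16e-10), and Junb at 327, 371 and 267 CPM in the docetaxel libraries against 749.8, 715 and 654 CPM in DMSO (log2 change -1.14 ± 0.10, adjusted p = 3.40e-09). The groups did not overlap. Ier5l (1.30 ± 0.11) and Gadd45g (0.61 ± 0.12) rose. Fosb, at 10.8, 5.58 and 9.25 CPM in the docetaxel libraries against 164, 68.5 and 147 CPM in DMSO, was lowest in library 2 of each group. EGF family ligands and their receptors were counted together: 6 of 10 genes were lower and 2 higher (22.5% and 26.5% of all genes). The receptor gene Erbb3 was at 45.5, 47.3 and 42.6 CPM in the docetaxel libraries against 91.7, 100.5 and 111 CPM in DMSO (log2 change -1.17 ± 0.08, adjusted p = 7.40e-11). The ligand gene Hbegf was at 18.5, 19.7 and 20.3 CPM in the docetaxel libraries against 57.9, 47.4 and 58.4 CPM in DMSO (log2 change -1.49 ± 0.11, adjusted p = 7.40e-11). Btc, for the ligand betacellulin, rose from 1.71 ± 0.398 to 11.2 ± 0.813 CPM (log2 change 2.70 ± 0.19, adjusted p = 9.34e-11). Against the other drugs 10 of the 37 immediate early genes were higher and 11 lower (14.5% and 12.7% of all genes). Egr1 was at 340.0, 335 and 293 CPM in docetaxel, 893, 624 and 578 CPM in DMSO and 66.5 ± 9.92 CPM in alisertib and 95.4 ± 20.4 CPM in etoposide (log2 2.02 ± 0.14, adjusted p = 6.58e-10). Ier2 differed likewise (log2 1.35 ± 0.14, adjusted p = 1.39e-07).

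Of 14 tested genes of drug efflux and taxane metabolism 6 rose and 3 fell (26.5% and 22.5% of all genes), and the counts were 4 and 3 without docetaxel 1, without DMSO 1 or without DMSO 3. Abcb1b, one of the rodent genes for P-glycoprotein, which pumps taxanes out of cells, was at 89, 93 and 90.1 CPM in the docetaxel libraries against 59.6, 71.2 and 63 CPM in DMSO (log2 change 0.49 ± 0.08, adjusted p = 2.80e-05). Abcb1a, the other, was at 39.1, 40.1 and 37.2 CPM in the docetaxel libraries against 30.3, 38.4 and 31.8 CPM in DMSO (adjusted p = 0.108), with DMSO 2 reaching into the docetaxel range; it was called higher without DMSO 2, under scaling by total counts and in both limma fits. Cyp1b1 rose from 58.5 ± 2.32 to 94.8 ± 5.37 CPM (log2 change 0.69 ± 0.11, adjusted p = 1.28e-05). Abcc3 fell (log2 change -0.69 ± 0.13, adjusted p = 1.06e-04). Both Abcb1b (log2 -0.34 ± 0.07, adjusted p = 7.01e-04) and Cyp1b1 (log2 -0.80 ± 0.09, adjusted p = 1.19e-06) were lower than the mean of the other 2 drugs.

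Of the 664 tested genes whose 3 DMSO libraries together held no more than 4 counts, 636 were called higher, 537 of them protein coding, and 128 reached a mean of 1 CPM in docetaxel. Such genes had to differ somewhere in the series to be tested, so the count is no measure of the drug. Mmp13, a collagenase, had 0 counts over the DMSO libraries and 4.92, 3.81 and 3.36 CPM in docetaxel, at least 97.0-fold higher against a floor of 3 counts over the DMSO group. Pgc, a digestive proenzyme also made in prostate, had 0 counts and 3.28, 4.08 and 3.91 CPM, at least 90.3-fold higher. Calm4, a calmodulin-like gene of skin, had 2 counts over DMSO and 5.94, 7.39 and 7.5 CPM, and Npy, a neuropeptide, 3 counts and 4.48, 3.89 and 4.28 CPM. Every docetaxel library carried each of these 4 transcripts. Pgc was higher than under the other drugs (1.23 ± 0.121 CPM in alisertib and 0.239 ± 0.191 CPM in etoposide, log2 2.78 ± 0.33, adjusted p = 4.39e-06) whereas Mmp13 was at 3.6 ± 0.425 CPM in alisertib and 4.26 ± 0.439 CPM in etoposide.

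Against the mean of alisertib and etoposide 4232 of 15527 genes were called (27.3%), of which 2254 (14.5%) lay above that mean and 1978 (12.7%) below it. A difference of 2-fold or more was reached by 631 (4.06%). The median difference over all genes was 0.04. Among the highest in docetaxel was Ttr (transthyretin), a carrier of thyroid hormone, at 11, 11.7 and 11.1 CPM against 0.916, 0.663 and 1.04 CPM in DMSO and 2.21 ± 0.629 CPM in alisertib and 1.6 ± 0.41 CPM in etoposide (log2 2.58 ± 0.20, adjusted p = 2.91e-09). H1f0, the histone H1 of resting cells, fell from DMSO (log2 change -1.05 ± 0.11, adjusted p = 6.96e-08) but less than under the other drugs (40.9 ± 6.36 CPM in alisertib and 45.9 ± 5.43 CPM in etoposide, against 137, 151 and 112 CPM in docetaxel, log2 1.62 ± 0.10, adjusted p = 3.90e-11). Aldoc and Krt19 behaved alike, with log2 changes of -1.71 ± 0.12 and -2.18 ± 0.24 against DMSO and lying above the other drugs by 1.41 ± 0.11 and 1.41 ± 0.21. All docetaxel libraries were above all 6 others in these 4 genes, which the rule that named them required.

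The lowest in docetaxel included genes that docetaxel itself raised above DMSO. Slc15a3, a lysosomal peptide transporter of innate immune cells, was at 44.2, 34.2 and 44.6 CPM in the docetaxel libraries against 13.6, 11.9 and 14 CPM in DMSO and at 145 ± 19.7 CPM in alisertib and 128 ± 10.4 CPM in etoposide (log2 -1.73 ± 0.11, adjusted p = 1.44e-10). Glrb, the beta subunit of the glycine receptor, was at 12.6, 11.6 and 12 CPM and at 44.3 ± 5.42 CPM in alisertib and 33.3 ± 3.62 CPM in etoposide (log2 -1.66 ± 0.11, adjusted p = 2.14e-10). Serpinb9e and Serpinb9g, granzyme inhibitor relatives that are close copies of each other, lay below the other drugs, with log2 differences of -2.95 ± 0.18 and -2.32 ± 0.22.

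The largest falls against DMSO by the naming rule included genes not yet named above. Plac8 was at 0.966, 1.5 and 1.1 CPM in the docetaxel libraries against 21.9, 25.5 and 28.4 CPM in DMSO (log2 change -4.46 ± 0.28, adjusted p = 9.62e-12). Krt78, a keratin of stratified epithelia, was at 5.41, 5.31 and 5.12 CPM in the docetaxel libraries against 97.6, 79.2 and 107 CPM in DMSO (log2 change -4.16 ± 0.20, adjusted p = 9.45e-14). Ccn1, a matrix-associated signalling protein, was at 281, 257 and 229 CPM in the docetaxel libraries against 2162, 2264 and 2162 CPM in DMSO (log2 change -3.10 ± 0.10, adjusted p = 9.87e-17). Pygl, the liver form of glycogen phosphorylase, was at 2.69, 2.92 and 2.96 CPM in the docetaxel libraries against 24.5, 27.2 and 25.4 CPM in DMSO (log2 change -3.18 ± 0.18, adjusted p = 2.48e-12). The groups did not overlap for these 4 genes, which the naming rule required.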

How the data were processed

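RNA was extracted as total RNA and sequenced as 150-bp paired-end reads, per the labels' protocols. The submitters' processing notes name fastp, STAR, featureCounts, DESeq2 and the mm10 build, with versions not given in the sources used here. The authors deposited a table of raw counts per gene and a table of TPM per gene. The count table lists 55487 genes, and 24621 genes have deposited TPM. Strand handling and multi-mapped reads are not given in the sources used here.

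Counts of all 24 libraries in 8 groups were fitted with edgeR 4.0.16 (R 4.3.3; filterByExpr with minimum count 10 and minimum total 15, TMM factors, glmQLFit, glmQLFTest, one mean per group, 16 residual degrees of freedom), two-sided, with Benjamini-Hochberg adjustment over all 15527 genes. Genes tested held 99.9% of counts. Docetaxel was tested against DMSO and against the mean of alisertib and etoposide. Levels are CPM on TMM-scaled library sizes, and SDs are over 3 libraries. TPM served to add and compare genes and, as log2(TPM + 1) and log2(TPM + 0.1), in limma 3.58.1. Other alternatives used DESeq2 1.42.0, other scalings and filters, docetaxel 1 thinned to 25380158 counts, a replicate block and libraries left out. The script was tested on simulated data. Replicate libraries of a group differed by more than sampling noise (chi-square per degree of freedom 13.1 to 21.1). Promoters are RefSeq windows (GRCm38.p6); coding starts are from GENCODE vM21. Gene lists and the comparisons were chosen with earlier results of these data known, with symbols matched through synonyms. Named genes are the largest changes that separate all libraries (at least 10 CPM in the higher group), the largest changes in CPM, the largest differences from alisertib and etoposide that separate all their libraries, the highest in docetaxel among genes with at most 4 DMSO counts, and members of the lists.
Genes named by the rule are described in part, and some are not reported here.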

Additional observations from a re-analysis of the deposited data

How the results depend on the processing

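The count of calls against DMSO went from 7608 to between 6663 and 7464 when 1 library was left out, and to 6607 without both libraries numbered 2. Testing against a minimum change of 1.5-fold left 2461 genes, 1861 higher and 600 lower, and, against alisertib and etoposide, 320 genes, 170 higher and 150 lower, with 269 changed at least 2-fold. Scaling by total counts gave 6551 higher and 1806 lower, limma on log2(TPM + 0.1) 6513 and 1548, and limma on log2(TPM + 1) 6532 and 1578; against alisertib and etoposide these settings moved the median of all genes by 0.01. The count changed at least 2-fold was 1641 with at least 1 CPM in 3 libraries and 1211 in limma on log2(TPM + 1), and against alisertib and etoposide 358 and 184. Changes turned sign for Cnot11 (0.02 under total counts, 0.05 in both limma fits), H2-D1 (0.20, 0.22 and 0.22) and Srebf1 (0.19, 0.22 and 0.22); the cause was not tested. With the replicate block 8597 genes were called against DMSO and 5480 against alisertib and etoposide. Deviations of DMSO and docetaxel libraries with the same number correlated at 0.0686, 0.43 and 0.198 across genes. Those with different numbers correlated at -0.33 to 0.294. The numbers were not taken as pairs, although library 2 was the lowest of its group on the second component (12.3% of variance) in 8 of 8 groups. Of 2895 values of named genes against DMSO under alternatives 2776 kept their side of the threshold and direction, 66 lost the call, 44 gained one and 9 turned sign. Low levels limit precision: the median standard error was 0.58 under 1 CPM and 0.08 at 100 CPM or more.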

Other observations

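The other gene lists were counted against the same background (26.5% of all genes rose and 22.5% fell). Among signalling lists, 15 of 25 TGF-beta and BMP genes rose and 5 fell (19 and 3 under scaling by total counts). For YAP and TEAD targets and the Hippo pathway, 6 of 33 genes rose and 12 fell (16 and 4 under scaling by total counts). For the output of ERK, 3 of 16 genes rose and 7 fell (5 and 5 under scaling by total counts). Of the IGF pathway, 3 of 10 genes rose and 3 fell (5 and 2 under scaling by total counts). Of the MYC network, 3 of 11 genes rose and 2 fell (5 and 2 under scaling by total counts). Among immune lists, 16 of 26 cytokine genes rose and 5 fell (the same counts under scaling by total counts; 4 of the 16 had no more than 4 DMSO counts in all), 8 of 18 interferon signalling genes rose and 2 fell (11 and 0 under scaling by total counts) and 10 of 18 checkpoint and NK ligand genes rose and 4 fell (11 and 4 under scaling by total counts). Of extracellular proteases and their inhibitors, 14 of 22 genes rose, 4 of them with no more than 4 DMSO counts in all, and 3 fell (16 and 3 under scaling by total counts). Of caspases, gasdermins and necroptosis, 9 of 21 genes rose, 4 of them with no more than 4 DMSO counts in all, and 3 fell (10 and 2 under scaling by total counts). Among the other 17 genes of that list 5 rose and 3 fell, with a median log2 change of -0.09.

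Among organelle and stress lists, 16 of 46 lysosome and autophagy genes rose and 12 fell (28 and 5 under scaling by total counts), 7 of 25 chaperone genes rose and 7 fell (13 and 6 under scaling by total counts) and 6 of 22 NRF2 targets rose and 8 fell (9 and 4 under scaling by total counts). Of lamins and the nuclear envelope, 3 of 17 genes rose and 6 fell (5 and 4 under scaling by total counts). Of the urea cycle and polyamines, 3 of 16 genes rose and 8 fell (7 and 5 under scaling by total counts). Of sterol efflux and LXR targets, 1 of 9 genes rose and 2 fell (3 and 1 under scaling by total counts). Of mitotic kinesins, 10 of 13 genes rose and 1 fell (12 and 0 under scaling by total counts), of microtubule nucleation 4 of 12 genes rose and 1 fell (8 and 1 under scaling by total counts) and of tubulin modification 5 of 17 genes rose and 3 fell (7 and 1 under scaling by total counts).

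Gene types moved differently. Tested lincRNA genes had a median log2 change of 0.68 and 47.6% were called, while processed pseudogenes had a median of -0.34, and protein-coding genes one of 0.01 with 52.8% called. The part of the nuclear-retained RNAs in the lincRNA values was not tested. Reads of pseudogenes can come from their parent genes. By chromosome, the median was 0.15 on chromosome 2, with 384 genes higher and 171 lower of 1121 tested, and -0.11 on chromosome X, with 74 higher and 129 lower of 440. In docetaxel libraries 1, 2 and 3 the chromosome 2 median, relative to the DMSO mean on the log2(CPM + 0.5) scale, was 0.13, 0.10 and 0.14, and that of X was -0.10, -0.13 and -0.08.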
